A study of Rattus norvegicus with 8 samples.

Results

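The genes described here are the enzymes that make or remove reactive oxygen species, with the phagocyte NADPH oxidase, measured in rat spinal cord during experimental autoimmune encephalomyelitis (EAE). They were chosen by symbol. Every row of the expression table whose single gene symbol belongs to a fixed set of families was taken, which gave 71 of 8793 rows. The families are the NADPH oxidases, nitric oxide synthases, superoxide dismutases, glutathione and thioredoxin enzymes, peroxiredoxins, metallothioneins, selenoproteins, quinone reductases and a few regulators. The symbol pattern also took 6 genes whose role is another or unclear (Ggta1, Txndc2, Txndc8, Txndc9, Txndc15 and Txnl4b), and these are counted with the rest.

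RNA came from whole spinal cord of female, virgin Lewis rats, with 1 Affymetrix Rat Exon 1.0 ST array for each rat and a labelled age of 16 weeks. In the 4 MBP-EAE rats (217, 218, 219 and 241) EAE followed an injection of myelin basic protein (MBP), 50 µg per rat, in incomplete Freund's adjuvant with mycobacteria, and tissue was collected on day 13, near the peak of disease. The 4 healthy control rats (193, 194, 195 and 196) were untreated littermates of the same age. Because they received no adjuvant, effects of MBP and of adjuvant cannot be told apart. Values are log2 intensities, and the values of single rats are given in the order of the numbers above. A gene is called higher or lower when its adjusted p from limma was under 0.05, after Benjamini-Hochberg adjustment across the whole table of 8793 rows.

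Reactive oxygen species are made on purpose by phagocytes. Their oxidase is assembled at the membrane from a catalytic subunit, encoded by Cybb, and cytosolic subunits such as Ncf1, and it passes electrons to oxygen to form superoxide. Superoxide dismutases turn superoxide into hydrogen peroxide, which catalase, glutathione peroxidases and peroxiredoxins break down. The glutathione peroxidases and peroxiredoxins do so at the expense of glutathione or thioredoxin. In EAE, macrophages and activated microglia are a known source of these oxidants in the inflamed cord, and many of the protective enzymes are known targets of the transcription factor Nfe2l2, which Keap1 holds back.

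Of the 71 genes, 25 (35.2%) were called changed in MBP-EAE, against 25.9% of all rows. There were 15 called higher (21.1%, against 11.3% of all rows), 10 called lower (14.1%, against 14.6% of all rows) and 46 not called, and 28 had an unadjusted p under 0.05. In 14 genes the 4 MBP-EAE values all lay above the 4 healthy values, against 12% of all rows, and in 15 they all lay below, against 17.3% of all rows. The share called lower was no larger than over all rows. The median log2 fold change over the 71 genes was -0.10, the same to 2 decimals as the median over all rows. Changes of at least 2-fold were measured in 7 genes, Cybb, Ncf1, Gpx1, Xdh, Txnip, Gpx3 and Txn1, and all 7 were higher. Without the 6 genes of other or unclear role the counts were 14 higher and 10 lower of 65.

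The array of healthy rat 195 stood apart from the others. Its interquartile range over all rows was 2.23, against 2.61 to 2.93 on the other 7 arrays. It held the lowest healthy value for 30 of the 71 genes and the highest for 20. The median of the 71 genes was 6.14 to 6.24 on the MBP-EAE arrays and 5.68 to 5.95 on the healthy arrays, with the lowest on the array of rat 195. Without that array 16 of the genes were called higher and 12 lower. Of the 25 calls, only that of Prdx5 was lost without it. A further 6 genes, Duox1, Duox2, Nox3, Gpx6, Gstm3 and Glrx-ps4, lay under the lower quartile of every one of the 8 arrays, so that their values say little about a level.

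**Figure D1:**
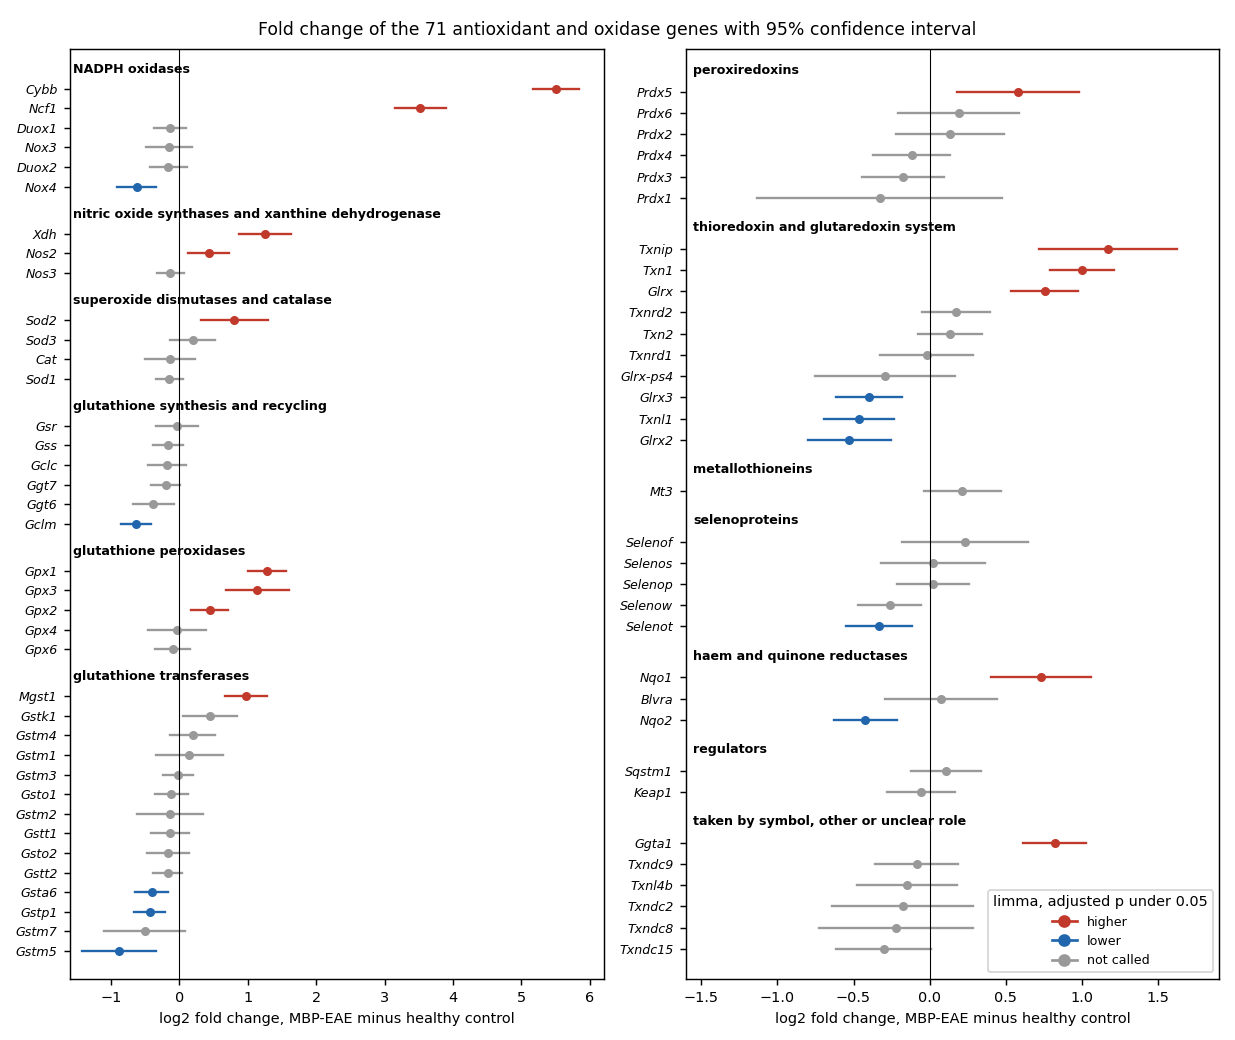
Log2 fold change of each of the 71 genes (x axis, MBP-EAE minus healthy control) with its 95% confidence interval, grouped by role. Red marks genes called higher, blue genes called lower and grey genes not called. Cybb at 5.50 and Ncf1 at 3.52 lie far to the right of all other genes, and the x axes of the 2 panels differ.

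The phagocyte oxidase showed the largest change. Cybb, the catalytic subunit, was 9.96, 10.23, 9.86 and 10.14 in MBP-EAE rats, against 4.81, 4.76, 4.23 and 4.39 in healthy rats. Its 4 MBP-EAE values stood close together and far above every healthy value. The healthy values lay under the array medians of 4.94 to 5.08, and that of rat 195 also lay under the lower quartile of its array (4.28). The log2 fold change was 5.50 (95% interval 5.17 to 5.84), a 45.4-fold difference (limma, adjusted p = 5.67e-09).

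Ncf1 encodes the cytosolic subunit that organises the active oxidase, and natural variants of it alter the severity of experimental arthritis in rats. Its values were 8.50, 7.79, 7.90 and 8.10 in MBP-EAE rats and 4.27, 4.64, 4.52 and 4.76 in healthy rats. The groups did not overlap, and the fold change was 3.52 on the log2 scale, or 11.5-fold (95% interval 3.15 to 3.90 on the log2 scale, adjusted p = 1.90e-07 from limma). Rat 217 had the highest Ncf1 value but not the highest Cybb value, which was in rat 218.

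The other NADPH oxidases did not move with these subunits. Nox4, which makes hydrogen peroxide without needing cytosolic subunits such as Ncf1, was 4.41, 4.59, 4.84 and 4.58 in MBP-EAE rats and 5.17, 5.04, 5.22 and 5.49 in healthy rats. All of its MBP-EAE values lay below the healthy ones, and it was 1.55-fold lower (log2 fold change -0.63 with a standard error of 0.13, limma adjusted p = 0.00529). Nox3, an oxidase of the inner ear, Duox1 and Duox2, oxidases best known in thyroid and airway, had log2 fold changes of -0.15, -0.14 and -0.16 and were not called.

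**Figure D2:**
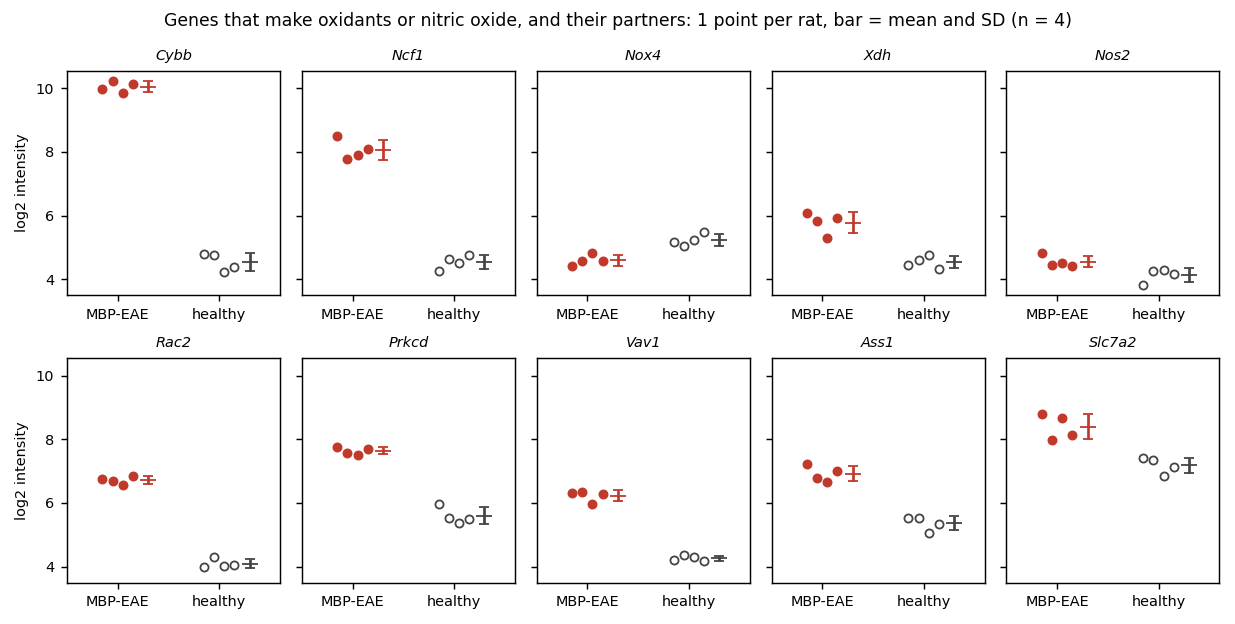
Log2 intensity (y axis) of genes that make oxidants or nitric oxide and of their partners, with 1 point per rat, filled for MBP-EAE and open for healthy control, and the mean and SD beside the points (n = 4 each). Cybb and Ncf1 show the widest gaps, Nox4 is the one gene shown that was lower in MBP-EAE, and levels are not compared between genes, since probes differ in brightness.

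Partners of the phagocyte oxidase were read from a list, of which 11 rows were measured. The list holds proteins that switch the oxidase on but also others, such as an inhibitory receptor. Of these, 9 were called higher, 1 was called lower and 1 was not called (90.9% called, against 25.9% of all rows). The median log2 fold change was 2.42, against -0.10 over all rows. Rac2, the small GTPase that joins the oxidase in blood phagocytes, was 6.76, 6.68, 6.57 and 6.84 in MBP-EAE rats and 3.99, 4.30, 4.03 and 4.06 in healthy rats (log2 fold change 2.62). Prkcd, a kinase that phosphorylates the cytosolic subunits, had a log2 fold change of 2.04, and Vav1, which loads Rac with GTP in blood cells, one of 1.97. The receptors Fcgr2b, an inhibitory Fc receptor, and Itgam, the alpha chain of a complement receptor, had log2 fold changes of 3.47 and 3.44. Lyn and Btk, kinases of immune receptors, had 3.23 and 2.42. All 4 healthy values of Btk lay under the lower quartile of their arrays, so that its fold change and the list's median, which is the same value, rest on a dim signal in healthy rats.

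The GTPases that most cells share moved less. Rac1, the widely expressed relative of Rac2, averaged 11.08 ± 0.12 in MBP-EAE rats and 10.69 ± 0.31 in healthy rats (SD, n = 4 each) and was not called (log2 fold change 0.40, limma adjusted p = 0.0806). The paired genes Rap1a and Rap1b moved in opposite directions. Rap1a was lower, with a log2 fold change of -0.58 (adjusted p = 0.0245 from limma), and Rap1b was higher, with one of 0.63 (adjusted p = 0.0029).

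The cell types that carry the oxidase were read from marker lists. All 5 measured monocyte and macrophage markers were called higher, against 11.3% of all rows. Their summed linear intensity was 4972 to 6178 in MBP-EAE rats and 258 to 388 in healthy rats. Of the 5 markers, Ccr2 had a log2 fold change of 4.90 and Lyz2 one of 4.15. In healthy rats 193 and 195 Ccr2 lay under the lower quartile of their arrays, so that its fold change rests on a dim signal in healthy rats. Both measured microglia markers were called higher as well, with a summed linear intensity of 1541 to 1745 in MBP-EAE rats and 486 to 593 in healthy rats. None of the 5 measured neutrophil markers was called by limma (1 had an unadjusted p under 0.05, Cxcr2, with a log2 fold change of -0.29), and their summed linear intensity was 59.6 to 76.9 in MBP-EAE rats and 56.9 to 81.3 in healthy rats. S100a8 and S100a9, abundant neutrophil proteins, averaged 3.81 and 3.82 in MBP-EAE rats and 3.73 and 3.65 in healthy rats, near the lower quartiles of the 8 arrays (3.87 to 4.28). S100a8 lay under the lower quartile on 5 arrays and S100a9 on 7. Cxcr2 and Mmp8 lay under it on all 8 arrays, so that the values of this list say little about neutrophils. The macrophage markers moved together with Cybb and Ncf1, and their part in the result was not tested. In whole cord, a change in the number of cells of a type and a change in RNA per cell cannot be told apart, here or for any gene below.

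Genes whose pattern was most like that of the 3 genes with the largest change were looked up over the 8 arrays, which form 2 groups, so that any gene with a large group difference correlates. For Cybb, Pearson's r was highest with Fcgr2b (0.999), Ptpn6 (0.999) and Cxcl16 (0.999). For Ncf1 it was highest with Trpm2 (0.999), RGD1359108 (0.998) and Cd37 (0.997), and for Gpx1 with Acox3 (0.993), Trpc6 (0.992) and Ptgfrn (0.991).

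Xanthine dehydrogenase, encoded by Xdh, is the last enzyme of purine breakdown and can turn into an oxidase that releases superoxide. It was 6.08, 5.84, 5.30 and 5.92 in MBP-EAE rats, against 4.44, 4.61, 4.77 and 4.32 in healthy rats. The groups did not overlap and Xdh was 2.38-fold higher (log2 fold change 1.25, standard error 0.17, limma adjusted p = 5.11e-04), with the least elevated value in rat 219.

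The inducible nitric oxide synthase, Nos2, changed little on these arrays. Its values were 4.83, 4.46, 4.52 and 4.43 in MBP-EAE rats and 3.81, 4.26, 4.30 and 4.16 in healthy rats, all under the array medians. No MBP-EAE value fell under a healthy one, and the 1.34-fold difference just passed the threshold (log2 fold change 0.43, limma adjusted p = 0.0450). The call was lost in 7 of the 8 fits that left out 1 rat. The limma adjusted p was 0.129 without MBP-EAE rat 217, 0.0658 without 218, 0.0795 without 219 and 0.0612 without 241. Among the healthy rats it was 0.0792 without rat 193, 0.0633 without 194 and 0.0890 without 196. Nos3, the endothelial enzyme, averaged 4.64 ± 0.07 in MBP-EAE rats and 4.78 ± 0.07 in healthy rats (SD, n = 4 each) and was not called.

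Supply of the substrate arginine was read from a list of 13 measured rows for arginine and tetrahydrobiopterin, the cofactor of nitric oxide synthases. Of these, 2 were called higher, 1 was called lower and 10 were not called. The share called was 23.1%, against 25.9% of all rows. Ass1, which rebuilds arginine from citrulline, was 7.22, 6.80, 6.66 and 6.99 in MBP-EAE rats and 5.53, 5.51, 5.05 and 5.35 in healthy rats (log2 fold change 1.56). Slc7a2, a transporter that brings arginine into cells, had a log2 fold change of 1.21 without overlap between the groups. Of the arginases, which compete for arginine, Arg2 was lower (log2 fold change -0.39, limma adjusted p = 0.0157) and Arg1 had a log2 fold change of -0.26 that was not called (adjusted p = 0.103). Gch1, which starts tetrahydrobiopterin synthesis, had a log2 fold change of 0.14 and was not called.

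Among the superoxide dismutases and catalase, 4 genes measured, the mitochondrial dismutase was the one gene called (25%, against 25.9% of all rows). Sod2 was 9.92, 10.14, 9.86 and 10.24 in MBP-EAE rats and 9.55, 9.58, 8.52 and 9.29 in healthy rats. The gap between the groups was small beside the spread of the healthy rats, among which rat 195 was lowest, and the 1.75-fold difference gave a limma adjusted p of 0.0226. Without healthy rat 195 the log2 fold change of Sod2 was 0.57 in place of 0.80, still called (adjusted p = 0.00830). The call was lost without MBP-EAE rat 218 (adjusted p = 0.0565), without 241 (adjusted p = 0.0641) or without healthy rat 196 (adjusted p = 0.0510). It was also lost when the spread was estimated from Sod2 alone in place of limma's moderated estimate, with adjusted p of 0.0793 for equal and 0.132 for unequal variances in the groups.

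The cytosolic dismutase Sod1 was 9.92, 9.95, 10.01 and 9.996 in MBP-EAE rats, against 10.02, 10.06, 10.14 and 10.25 in healthy rats. Its MBP-EAE values all lay just below the healthy ones, with a 95% interval of -0.35 to 0.06 for the log2 fold change, and it was not called. Sod3, the extracellular dismutase, had a log2 fold change of 0.19 with an interval of -0.14 to 0.52. Catalase, encoded by Cat, was 8.82, 8.76, 8.91 and 8.94 in MBP-EAE rats and 9.33, 9.09, 8.49 and 9.09 in healthy rats. Rat 195 was the one healthy rat under the MBP-EAE values of Cat, and without it Cat was called lower (limma adjusted p = 0.0445), while with all rats it was not (adjusted p = 0.570).

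Of the 5 glutathione peroxidases measured, 3 were called higher (60%, against 11.3% of all rows) and none lower. Gpx1, the main cytosolic enzyme, was 7.94, 8.15, 8.00 and 8.45 in MBP-EAE rats and 6.86, 6.89, 6.74 and 6.93 in healthy rats. The 4 healthy values lay within a narrow band well below the MBP-EAE values, and Gpx1 was 2.43-fold higher (95% interval of the log2 fold change 1.003 to 1.56, limma adjusted p = 4.72e-05). The secreted enzyme Gpx3 was 6.03, 5.08, 5.70 and 5.74 in MBP-EAE rats and 4.62, 4.13, 4.47 and 4.79 in healthy rats, a 2.20-fold difference (adjusted p = 0.00274 from limma). Rat 218 had the lowest Gpx3 value of the MBP-EAE rats, still above all healthy values.

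Gpx2, known best from the gut lining, was 6.21, 6.28, 6.15 and 5.93 in MBP-EAE rats and 5.77, 5.89, 5.46 and 5.69 in healthy rats. These groups stood close to each other, and the 1.36-fold difference passed the threshold narrowly (limma adjusted p = 0.0232). The call for Gpx2 was lost without MBP-EAE rat 217 (adjusted p = 0.0689), 218 (0.0654) or 219 (0.0526) and without healthy rat 196 (0.0596). Gpx4, which protects membrane lipids from peroxidation and cells from ferroptosis, averaged 4.74 ± 0.24 in MBP-EAE rats and 4.77 ± 0.38 in healthy rats (SD, n = 4 each). Its log2 fold change was -0.04, with a wide interval of -0.46 to 0.39 that leaves room for a change in either direction. Gpx6, an enzyme of olfactory tissue, was not called and lay under the lower quartile of all arrays.

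Among the 6 genes for glutathione synthesis and recycling, 16.7% were called, against 25.9% of all rows. None was called higher, and 1 was called lower. That gene was Gclm, the modifier subunit of glutamate-cysteine ligase, which sets the pace of glutathione synthesis. It was 5.91, 5.90, 6.14 and 6.01 in MBP-EAE rats and 6.60, 6.61, 6.50 and 6.79 in healthy rats. Every MBP-EAE value lay below every healthy value, and Gclm was 1.55-fold lower (95% interval of the log2 fold change -0.86 to -0.41, limma adjusted p = 0.00128). The call held under all 17 alternative settings, with log2 fold changes of -0.73 to -0.56.

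The catalytic subunit Gclc was 7.74, 7.56, 7.48 and 7.84 in MBP-EAE rats and 7.92, 7.92, 7.55 and 7.92 in healthy rats. It had a log2 fold change of -0.18 (interval -0.45 to 0.10) and was not called, and among the healthy rats 195 alone lay within the MBP-EAE values. Gss, which adds the last amino acid of glutathione, had a log2 fold change of -0.17, and Gsr, which reduces oxidised glutathione, had one of -0.04. The gamma-glutamyl transferase relatives Ggt6 and Ggt7 had log2 fold changes of -0.38 and -0.20 with no overlap between the groups and were not called. Ggt6 was called lower without healthy rat 193 (limma adjusted p = 0.0380).

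Glutathione transferases attach glutathione to reactive compounds. Of 14 measured, 1 was called higher and 3 were called lower (28.6% called, against 25.9% of all rows). The median log2 fold change was -0.13. Mgst1, a membrane-bound transferase that also reduces lipid peroxides, was 8.70, 8.66, 8.78 and 9.03 in MBP-EAE rats and 7.88, 8.06, 7.49 and 7.83 in healthy rats. It was 1.97-fold higher without overlap (limma adjusted p = 5.97e-04) and was the one transferase called higher with all rats. The pi-class enzyme Gstp1 was 6.73, 6.56, 6.50 and 6.77 in MBP-EAE rats and 7.22, 7.07, 6.98 and 7.03 in healthy rats, which was 1.35-fold lower (adjusted p = 0.0112 from limma), again without overlap.

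Gstm5, a mu-class transferase, was 8.20, 7.48, 8.16 and 7.90 in MBP-EAE rats and 9.39, 8.92, 8.20 and 8.76 in healthy rats. It had the largest decrease of the 71 genes, 1.85-fold, but the spread within groups was wide and the value of healthy rat 195 reached that of MBP-EAE rat 217 (log2 fold change -0.88, standard error 0.24, limma adjusted p = 0.0241). The call was lost without MBP-EAE rat 218 (adjusted p = 0.0638) or 241 (0.0574) and without healthy rat 194 (0.0612) or 196 (0.0545). Gstm7, of the same class, varied as widely and was not called (log2 fold change -0.51, interval -1.10 to 0.08). Gstm1, a further gene of the class, averaged 9.75 ± 0.19 in MBP-EAE rats and 9.61 ± 0.49 in healthy rats (SD, n = 4 each) and was not called. The mu-class genes are near-identical in sequence, and whether their probes tell them apart could not be checked from the values.

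The alpha-class gene Gsta6 was 7.21, 7.07, 7.13 and 7.43 in MBP-EAE rats and 7.51, 7.77, 7.61 and 7.59 in healthy rats, which was 1.33-fold lower (limma adjusted p = 0.0197). Its groups did not overlap, but the call was lost without MBP-EAE rat 217 (adjusted p = 0.0533), 218 (0.0575) or 219 (0.0542) and without healthy rat 194 (0.0652). The remaining transferases had log2 fold changes of -0.17 to 0.45 and were not called. The highest of these was Gstk1, an enzyme of mitochondria and peroxisomes, which was called higher without healthy rat 193 (adjusted p = 0.0150).

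Peroxiredoxins reduce peroxides through thioredoxin, and only Prdx5 of the 6 measured was called (16.7%, against 25.9% of all rows). Prdx5, found in mitochondria and peroxisomes, was 8.20, 8.29, 8.02 and 8.51 in MBP-EAE rats and 8.09, 7.78, 7.22 and 7.61 in healthy rats. The groups overlapped through MBP-EAE rat 219 and healthy rat 193, and the 1.495-fold difference had a limma adjusted p of 0.0390. The call was lost in 6 fits that left out 1 rat, with an adjusted p of 0.0752 without MBP-EAE rat 217, 0.0826 without 218, 0.109 without 241, 0.0656 without healthy rat 194, 0.0566 without 195 and 0.0935 without 196. The cytosolic enzymes Prdx1 and Prdx2 had log2 fold changes of -0.33 and 0.13. Prdx1 was 8.32, 6.73, 7.76 and 8.30 in MBP-EAE rats and 7.77, 8.49, 7.58 and 8.59 in healthy rats, the widest spread within MBP-EAE of all 71 genes, with rat 218 more than a log2 unit below the next. Prdx3 of mitochondria, Prdx4 of the endoplasmic reticulum and Prdx6 had log2 fold changes of -0.17, -0.12 and 0.19 and were not called. Prdx3 was called lower without healthy rat 195 (adjusted p = 0.0449).

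The called thioredoxin and glutaredoxin genes split into genes that rose and genes that fell. Of 10 measured, 3 were called higher, 3 lower and 4 were not called, where 11.3% of all rows were called higher and 14.6% lower. Of the 10, 3 lay wholly above the healthy values and 3 wholly below, against 12% and 17.3% of all rows. These were the 6 called genes, and a gene that passes the test seldom overlaps between groups of this size. Txn1, the main thioredoxin, was 11.44, 11.48, 11.29 and 11.49 in MBP-EAE rats and 10.36, 10.52, 10.32 and 10.49 in healthy rats. Both groups were tight and a full log2 unit apart, a 2.001-fold difference (95% interval of the log2 fold change 0.79 to 1.21, limma adjusted p = 3.82e-05). Txnip, which binds and inhibits thioredoxin, was 9.20, 9.20, 8.77 and 9.42 in MBP-EAE rats and 8.56, 7.84, 7.86 and 7.66 in healthy rats, or 2.25-fold higher (adjusted p = 0.00218 from limma). Thioredoxin and its inhibitor were thus both higher in MBP-EAE.

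The reductases that recharge thioredoxin did not pass the test. Txnrd1, the cytosolic reductase, was 6.003, 5.79, 5.77 and 6.17 in MBP-EAE rats and 5.95, 5.97, 5.68 and 6.21 in healthy rats, with overlapping groups and a log2 fold change of -0.02 (interval -0.33 to 0.29). Txnrd2 of mitochondria had a log2 fold change of 0.17, which was called without healthy rat 195 (limma adjusted p = 0.0480). Txn2, the mitochondrial thioredoxin, had one of 0.13 and was not called.

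Glutaredoxins use glutathione to release proteins from mixed disulphides. The cytosolic enzyme Glrx was 7.34, 7.35, 7.42 and 7.33 in MBP-EAE rats and 6.57, 6.64, 6.79 and 6.44 in healthy rats, a 1.68-fold increase (limma adjusted p = 3.71e-04) with a spread of 0.04 (SD) within MBP-EAE. Glrx2, with a mitochondrial form, was 7.85, 7.86, 7.80 and 8.08 in MBP-EAE rats and 8.20, 8.30, 8.65 and 8.53 in healthy rats, which was 1.44-fold lower (adjusted p = 0.0108). Glrx3, which takes part in iron-sulphur handling, was 8.35, 8.34, 8.36 and 8.49 in MBP-EAE rats and 8.71, 8.83, 8.66 and 8.93 in healthy rats, or 1.32-fold lower (adjusted p = 0.0126). Txnl1, a thioredoxin-like protein bound to the proteasome, was 9.36, 9.31, 9.44 and 9.35 in MBP-EAE rats and 9.62, 9.79, 9.91 and 9.99 in healthy rats, or 1.38-fold lower (adjusted p = 0.00843). Every value of these 3 genes in MBP-EAE lay below every healthy value.

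Quinone reductases split in the same manner. Nqo1, which reduces quinones with NADPH and is a classical Nfe2l2 target, was 6.50, 6.43, 6.63 and 6.77 in MBP-EAE rats and 6.23, 5.89, 5.58 and 5.72 in healthy rats. It was 1.66-fold higher without overlap (limma adjusted p = 0.00510). Nqo2, a relative that uses another cofactor, was 5.36, 5.27, 5.09 and 5.20 in MBP-EAE rats and 5.63, 5.61, 5.65 and 5.73 in healthy rats, which was 1.34-fold lower (adjusted p = 0.00757 from limma), also without overlap. Blvra, which turns biliverdin into the antioxidant bilirubin, had a log2 fold change of 0.07 and was not called.

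**Figure D3:**
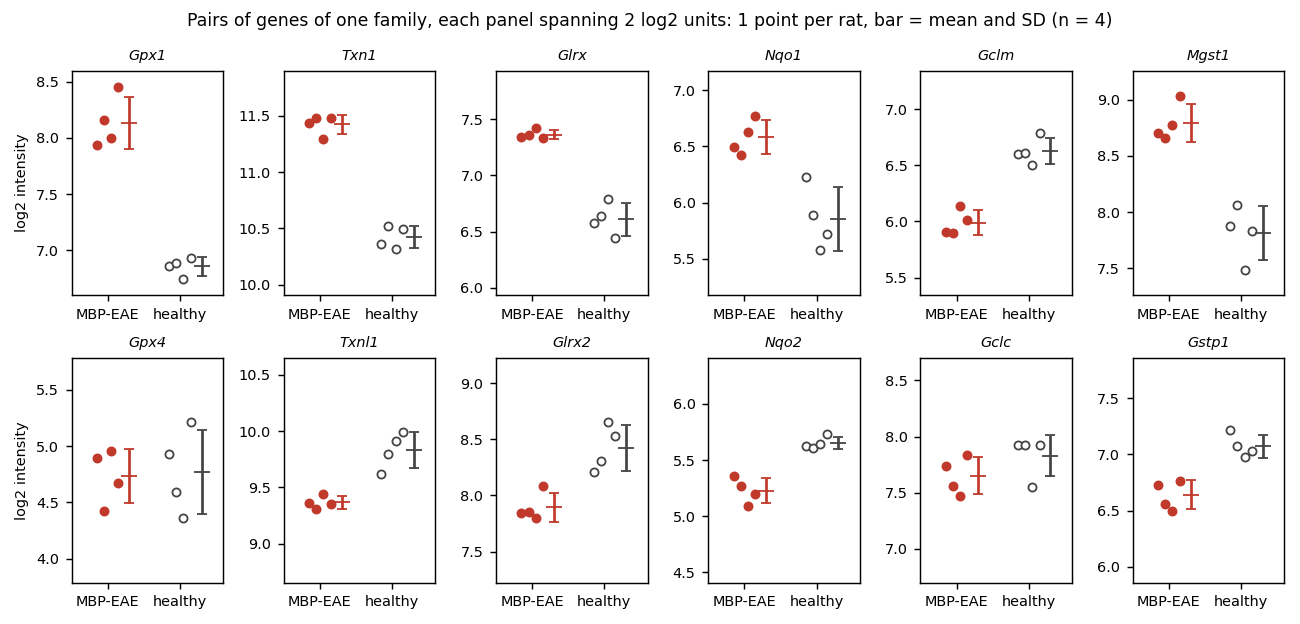
Log2 intensity (y axis, each panel spanning 2 log2 units) of 6 pairs of genes of 1 family or pathway, 1 pair per column, with 1 point per rat, filled for MBP-EAE and open for healthy control, and the mean and SD (n = 4 each). Txn1, Glrx, Nqo1 and Mgst1 lie higher in MBP-EAE in the upper row while Txnl1, Glrx2, Nqo2 and Gstp1 lie lower below them, Gclm is lower with Gclc not called, and Gpx1 is higher with Gpx4 not called.

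Selenoproteins outside the families above showed small changes. Of 5 measured, only Selenot, a protein of the endoplasmic reticulum, was called (20%, against 25.9% of all rows), and it was lower. It was 10.92, 11.01, 10.84 and 10.96 in MBP-EAE rats and 11.08, 11.30, 11.34 and 11.34 in healthy rats, a 1.26-fold difference (limma adjusted p = 0.0301) without overlap. The call was lost in 5 fits that left out 1 rat, with an adjusted p of 0.0819 without MBP-EAE rat 217, 0.0798 without 219, 0.0644 without 241, 0.0836 without healthy rat 194 and 0.0854 without 196. Selenop, which carries selenium between tissues, averaged 10.19 ± 0.16 in MBP-EAE rats and 10.17 ± 0.08 in healthy rats (SD, n = 4 each). Its log2 fold change was 0.02 with an interval of -0.21 to 0.25. Selenow had no overlap between the groups but was not called (log2 fold change -0.26, adjusted p = 0.0632), and Selenof and Selenos had log2 fold changes of 0.23 and 0.02. Dio2, a selenoenzyme that activates thyroid hormone and stands in the list of selenoprotein synthesis, was lower, with a log2 fold change of -0.85, and all 4 of its MBP-EAE values lay under the lower quartile of their arrays.

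Mt3, the brain metallothionein that binds zinc and copper, was 8.39, 8.43, 8.50 and 8.66 in MBP-EAE rats and 8.16, 8.17, 8.53 and 8.26 in healthy rats. Healthy rat 195 was the one that overlapped with the MBP-EAE values, and Mt3 was not called (log2 fold change 0.21, limma adjusted p = 0.201), though it was without that rat (adjusted p = 0.0471). Among genes that handle zinc and copper, 3 of 7 rows were called higher and 1 lower (57.1% called, against 25.9% of all rows). Cp, a copper-carrying ferroxidase of plasma, was 9.23, 9.74, 9.31 and 9.55 in MBP-EAE rats and 6.65, 6.69, 6.70 and 6.68 in healthy rats (log2 fold change 2.78). Atox1, a copper chaperone, had a log2 fold change of 1.20 and Slc31a1, the copper importer of the cell surface, one of 1.01. Ccs, the chaperone that loads Sod1 with copper, had a log2 fold change of -0.05 and was not called. Slc30a3, which fills synaptic vesicles with zinc, was lower, with a log2 fold change of -0.39.

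Ggta1, which builds a sugar of cell surfaces and is no antioxidant enzyme, was taken by its symbol alone. Its log2 fold change was 0.82 (limma adjusted p = 1.47e-04) without overlap between the groups. None of the other 5 genes of other or unclear role was called, and their log2 fold changes were -0.30 to -0.09.

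The regulators of the antioxidant response were Keap1, Sqstm1 and the genes of a separate list around Nfe2l2. Keap1, which marks Nfe2l2 for degradation, had a log2 fold change of -0.06, and Sqstm1, which ties up Keap1, had one of 0.10. Neither was called. In the list around Nfe2l2, 6 of 15 measured rows were called higher, 1 was called lower and 8 were not called. The share called was 46.7%, against 25.9% of all rows. The 15 rows stand for 14 genes, since Cbr1 has 1 row at a log2 fold change of 0.23 and another at -0.41, neither called. The list's median of 0.23 is the value of that first Cbr1 row. Nfe2l2 itself was 9.97, 9.75, 9.66 and 9.91 in MBP-EAE rats and 8.24, 8.11, 7.50 and 8.00 in healthy rats. Its log2 fold change was 1.86, without overlap between the groups.

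Among the other genes of that list, Hmox1, which breaks down haem, was 5.38, 5.82, 5.04 and 5.98 in MBP-EAE rats and 3.86, 4.05, 4.06 and 4.03 in healthy rats (log2 fold change 1.56). Its values in healthy rats 193, 194 and 195 lay under the lower quartile of their arrays, so that its fold change rests on a dim signal in healthy rats. Tkt and Taldo1, enzymes of the pentose phosphate pathway, had log2 fold changes of 0.81 and 0.72. Idh1, a cytosolic source of NADPH, was called lower (log2 fold change -0.54, limma adjusted p = 0.00727), and Me1, another such source, had a log2 fold change of -0.38 that was not called. The aldehyde reductase gene Akr1a1 and the transcription factor gene Maf had log2 fold changes of 0.53 and 0.51 and were called higher.

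The promoters of the 71 genes were searched for the core of the antioxidant response element, TGACNNNGC, to which Nfe2l2 binds with small Maf proteins. RefSeq promoter windows of the GRCr8 assembly, with 250 bases before and 50 after each start, were given for 63 of the genes. The letters were found on either strand in 13 of them (20.6%), against 13.1% of 27457 genes with such a window. They were present in 4 of 13 genes called higher, 3 of 10 called lower and 6 of 40 not called. The stretches below, read 5′ to 3′ on the strand of the gene, are those of the called genes whose match lies wholly before the start, followed by Txnrd1 as a known target that was not called. The windows are chr6:101229984-101230283 (Gpx2, minus strand), chr12:28121635-28121934 (Ncf1, plus), chr1:50050119-50050418 (Sod2, minus), chr2:213031885-213032184 (Gclm, plus), chr2:198219519-198219818 (Gstm5, plus), chr1:210769656-210769955 (Gstp1, minus) and chr7:22755855-22756154 (Txnrd1, minus). Capitals mark the match, which reads GCNNNGTCA where it lies on the other strand.
Gpx2, called higher: gtgggtacctggtttcGCTAAGTCAttct
Ncf1, called higher: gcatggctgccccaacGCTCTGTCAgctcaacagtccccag
Sod2, called higher: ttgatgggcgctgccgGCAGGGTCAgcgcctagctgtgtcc
Gclm, called lower: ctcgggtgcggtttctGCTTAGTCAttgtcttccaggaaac
Gstm5, called lower: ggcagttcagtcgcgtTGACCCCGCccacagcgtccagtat
Gstp1, called lower: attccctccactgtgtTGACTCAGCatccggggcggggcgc
Txnrd1, not called: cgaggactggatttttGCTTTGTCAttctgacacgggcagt
Gstm5 has another match, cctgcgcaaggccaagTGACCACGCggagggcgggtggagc, further from its start.

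TGCNCNC, a loose form of the core of the metal response element that allows any base where the core bound by Mtf1 has a purine, was found on either strand in 40 of the 63 genes (63.5%), against 52.0% of all genes with a window. A match of letters is no evidence that a factor binds there, and a window without one may have a site elsewhere.

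Markers of resident cells of the cord were read beside the genes that fell. Of 8 oligodendrocyte rows, 4 were called lower (50%, against 14.6% of all rows) and none higher. They stand for 7 genes, since Mbp has 2 rows, with log2 fold changes of -0.60 (called) and -0.12 (not called). Cldn11 went the other way, with a log2 fold change of 0.33 that was not called. The summed linear intensity of the 8 rows was 5344 to 6731 in MBP-EAE rats and 8124 to 10210 in healthy rats. Of 6 neurone markers, 4 were called lower, with a summed linear intensity of 9349 to 10863 in MBP-EAE rats and 12730 to 14597 in healthy rats. Of 6 astrocyte markers, 3 were called higher, Slc1a3, Gfap and Gja1, with log2 fold changes of 1.15, 0.69 and 0.69. The 3 not called, Aqp4, Slc1a2 and Gjb6, went the other way, with log2 fold changes of -0.18, -0.51 and -0.61. The 10 genes called lower here, with Gstm5, Gclm and Nox4 the largest, moved in the same direction as the medians of the oligodendrocyte and neurone lists (-0.27 and -0.57). The part of those cells in the result was not tested. T cell markers, 4 of 4, were called higher, and neither of the 2 endothelial markers was called. Hbb-b1, a globin of red cells, was lower, with a log2 fold change of -3.30.

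**Figure D4:**
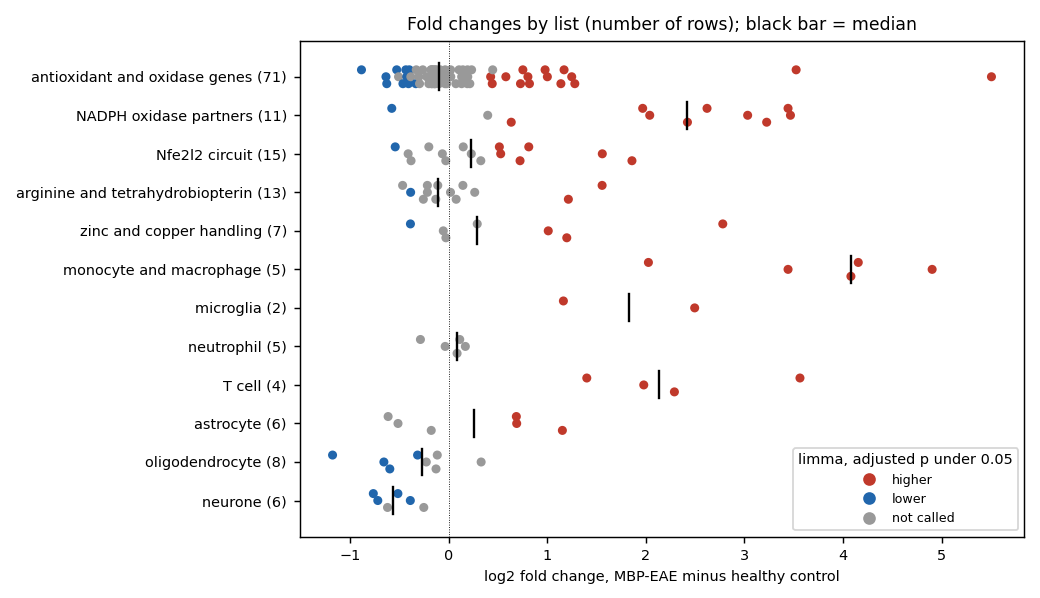
Log2 fold change (x axis, MBP-EAE minus healthy control) of the 71 genes and of the lists read beside them, with 1 point per row of the table, coloured by call, and a black bar at the median of each list. The oxidase partners, apart from Rap1a, and the macrophage markers lie to the right, with medians of 2.42 and 4.08. The neutrophil markers lie around 0, the neurone markers lie to the left, and so do the oligodendrocyte markers apart from Cldn11.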

How the data were processed

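Spinal cord RNA of 4 MBP-EAE and 4 healthy control Lewis rats was hybridised to 1 exon array each. Before deposit, the authors applied RMA background correction adjusted for GC content and quantile normalization, then took a mean over core probe sets per gene, and the deposited values are log2 intensities of 8793 rows. The submitters' processing notes name Affymetrix Expression Console, RMA, Partek and the rat build rn4. The platform table gave 1 symbol for 7603 rows, several for 409 and did not list 781.

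The deposited log2 values entered limma (version 3.58.1, under R 4.3.3) as a difference of MBP-EAE and healthy control over all rows, with moderated variances and p-values adjusted over all rows by the method of Benjamini and Hochberg. The methods' analysis of variance had a batch term, but the batch of each array is not given in the sources used here and was not fitted. The labels state an age of 16 weeks and guinea-pig MBP, where the methods give another age and recombinant MBP. Rat numbers name single animals and pair none across the groups. All 71 genes matched RefSeq by gene ID. The genes and lists were chosen with earlier results of these data known. Genes were named by role, with every oxidase, synthase, dismutase and metallothionein gene, and in other roles the 4 called genes with the largest change, called genes against the majority and the gene with the highest healthy mean. Others are named as examples, chosen after their values were seen.

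Alternatives were 3 normalizations between arrays, a filter on dim rows, the mean over rows of a gene, array weights, another variance prior, Welch's test, a t-test with equal variances and leaving out each rat. The code of the fit was tested on simulated data with known changes, which says nothing of the error in the real comparison. The number of arrays limits the precision. Figures were drawn with matplotlib 3.10.9.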

Additional observations from a re-analysis of the deposited data

Results flagged for a closer look

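A sample that lay far from the other 3 of its group, by Dixon's criterion for 4 samples, was found in 5 of 142 groups of 4 rats, where chance alone gives about 1 in 20, or 7.1. In healthy rats, Nos3 was 4.89 in rat 195 and 4.74 to 4.75 in the others. Gclc was 7.55 in healthy rat 195 and 7.92 in the others. Gstm4, a mu-class glutathione transferase, was 5.39 in healthy rat 193 and 4.84 to 4.92 in the others. Selenot was 11.08 in healthy rat 193 and 11.30 to 11.34 in the others, and it was the one gene of the 5 called between the groups. In MBP-EAE, Sqstm1 was 6.77 in rat 219 and 6.91 to 6.94 in the others. Rats 193 and 195 account for 2 each.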

How the results depend on the processing

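Of the 25 calls, 17 held under all 17 alternatives (9 settings and 8 fits that left out 1 rat), and no log2 fold change of a called gene changed sign. The 8 lost under at least 1 alternative were Glrx2, Gpx2, Gsta6, Gstm5, Nos2, Prdx5, Selenot and Sod2, and 10 of the 46 genes not called passed under at least 1. Cyclic loess between the arrays gave 16 genes called higher and 7 lower, in place of 15 and 10. It left 8 genes whose MBP-EAE values all lay below the healthy ones, in place of 15, and it ended the calls of Glrx2 (adjusted p = 0.0633), Gsta6 (0.0734) and Selenot (0.195). Over all rows it moved the median log2 fold change to -0.0031, against -0.10, and the share of higher calls to 58.1%, against 43.7%. The cause was not tested. The median over the 71 genes was 0.0026 after cyclic loess and 0.047 over the 50 kept when dim rows were left out. The t-test with equal variances called 12 genes higher and 10 lower, Welch's test 11 and 10, and array weights 18 and 15. The calls of Sod2, Prdx5, Nos2 and Gstm5 were lost under both of the first tests, with Benjamini-Hochberg adjusted p of 0.0793, 0.102, 0.0871 and 0.0863 under the t-test with equal variances and 0.132, 0.134, 0.0990 and 0.107 under Welch's test, which also ended that of Gpx2 (0.0521). The paper's larger gene list used a t-test p under 0.05 before any false discovery control, a looser threshold. Leaving out 1 rat gave 11 to 16 called higher and 7 to 12 called lower. No paired analysis was possible because the rat numbers differ between the groups. With 4 arrays a group, small changes of genes with a wide spread, such as Prdx1, could not be seen.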
